A study of Mus musculus with 6 samples.

Results

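Histone lysine methyltransferases and demethylases other than LSD1 are described here across wild-type and Shank3 mutant prefrontal cortex. The set holds 38 genes, 24 methyltransferases ("writers") and 14 demethylases ("erasers"), found by their symbols among the 54134 gene entries of the count tables. All 38 passed the filter on low counts that left 18705 genes for testing. The study measured total RNA of mouse prefrontal cortex by strand-specific sequencing after removal of ribosomal RNA, in 3 groups of 2 mice aged 6 to 8 weeks. The wild-type (WT) mice, on a mixed C57BL/6 and C3H background, received vehicle. The mutants were Shank3 +/∆C, heterozygous for a deletion in the C-terminal part of the postsynaptic scaffold Shank3, with 1 pair given vehicle and 1 pair given GSK-LSD1. GSK-LSD1 is an inhibitor of the histone demethylase LSD1 (Kdm1a), so its effect was measured only in mutants, and no wild-type mice with the inhibitor were among the samples. The labels give neither the dose nor the length of treatment.

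Writers transfer methyl groups from S-adenosylmethionine to lysines of histone tails, most of them through a SET domain. Erasers of the JmjC family remove them with iron and 2-oxoglutarate, whereas LSD1 uses flavin. Methylation of histone H3 lysine 4 (H3K4) marks promoters and enhancers, H3K36 the bodies of transcribed genes, and H3K9 and H3K27 silenced chromatin. LSD1 takes methyl groups off H3K4, the residue that the Kmt2 and Setd1 writers serve. Mutations in several of these genes, among them KMT2A, KMT2C, KMT2E, SETD5, ASH1L, EHMT1, NSD1 and KDM5C, are known causes of human neurodevelopmental disorders.

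The libraries held 14133834 to 28646960 counts, of which the 38 genes took 0.31% to 0.373%. The lowest count of any of them in any library was 57, for Suv39h2. Levels below are CPM (counts scaled to a common library total) with library totals adjusted by the trimmed mean of M values (TMM). Shank3 stood between 145.8 and 174.3 CPM and Kdm1a between 86.3 and 101.9 CPM over the 6 libraries, and neither passed the test in any comparison, although counts per whole gene do not check a deletion that leaves a transcript. Cortical excitatory markers were present in every library (Slc17a7 at 1156 CPM or more). Cell type markers differed between the libraries. The summed level of 12 oligodendrocyte genes was 2710 and 2460 CPM in the wild-type libraries, 6180 and 6230 in the vehicle-treated mutants, and 2500 and 5870 under GSK-LSD1. The sum of 10 excitatory neuron genes was 5870 and 5790 CPM in wild type against 4390 to 5200 in the mutants, and that of 10 astrocyte genes was 5070 and 6260 against 6940 to 7320. GSK-LSD1 library 2 stood apart for some markers of neighboring tissue. There 13 hypothalamus, septum and preoptic genes summed to 78.8 CPM, against 21.2 to 38.8 elsewhere. Zic1 at 49.26 CPM and Zic2 at 18.67 CPM made most of that sum. Only 5 of the 13 passed the filter on low counts, and Trh, at 1.567 CPM, lay within the range of the other libraries. The sum of 4 choroid plexus genes was 18.1 CPM in this library, against 4.18 to 9.12. None of these markers was at 0 in all libraries. In bulk tissue, fewer cells of a type and less RNA per cell cannot be told apart. The part of these shifts in the results below was not tested. Values from a fit with the oligodendrocyte level as a covariate are given for genes whose call it changed and some whose fold change it moved. That level separated wild type from vehicle-treated mutants and differed within groups mainly in the GSK-LSD1 pair. The slope of the covariate thus rests mostly on that 1 pair, and values from this fit are uncertain.

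The 4 genes that passed the test in any comparison were Kmt2a, Kmt2e, Setd5 and Kmt5a, all writers and all lower in GSK-LSD1-treated mutants than in wild type. Kmt2a lies at chr9:44803355-44881296 on the minus strand, Kmt2e at chr5:23434441-23504235, Setd5 at chr6:113077365-113153435 and Kmt5a at chr5:124439930-124462308, the last 3 on the plus strand (GRCm38, GENCODE M21). Promoters of Kmt2a and Kmt5a are shown with that of Kmt2d, which had one of the largest measured differences, so that the base composition of these start sites can be seen. Each run is the 250 bases before a RefSeq start (GRCm38.p6), 5′ to 3′ on the gene's strand, and capitals mark the GC box GGGCGG on either strand, the element bound by Sp1 family factors.
Kmt2a (chr9:44881290-44881539, minus strand): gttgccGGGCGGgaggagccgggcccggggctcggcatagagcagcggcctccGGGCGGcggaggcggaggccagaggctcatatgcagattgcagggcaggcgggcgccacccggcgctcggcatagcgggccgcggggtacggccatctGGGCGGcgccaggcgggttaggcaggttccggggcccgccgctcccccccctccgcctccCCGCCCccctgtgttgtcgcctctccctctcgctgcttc
Kmt2d (chr15:98871206-98871455, minus strand): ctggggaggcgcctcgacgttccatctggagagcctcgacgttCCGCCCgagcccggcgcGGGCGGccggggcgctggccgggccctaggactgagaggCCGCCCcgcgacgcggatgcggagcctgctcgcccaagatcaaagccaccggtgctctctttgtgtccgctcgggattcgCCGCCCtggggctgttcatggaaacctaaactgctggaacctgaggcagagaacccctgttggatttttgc
Kmt5a (chr5:124439680-124439929, plus strand, the first of 3 listed starts): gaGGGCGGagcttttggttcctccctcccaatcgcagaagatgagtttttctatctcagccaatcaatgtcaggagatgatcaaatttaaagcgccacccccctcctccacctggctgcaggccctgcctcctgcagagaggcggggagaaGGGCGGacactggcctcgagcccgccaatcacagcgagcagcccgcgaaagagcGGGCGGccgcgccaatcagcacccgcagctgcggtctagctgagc
The Kmt2a window held 29 CpG dinucleotides and 4 GC boxes, and its last bases lie within the GENCODE gene model. The Kmt2d window held 26 CpG and 4 GC boxes, and the Kmt5a window 16 CpG, 3 GC boxes and 4 copies of CCAAT. Kmt2e has no entry in the table. The entry of Setd5 lies inside its GENCODE gene body, downstream of the annotated start, and held 0 CpG and 0 GC boxes.

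Promoter entries were found for 26 of the 38 genes, 37 windows in all. A GC box stood in 70.3% of them, against 32.7% of the 32851 promoter windows in the table. Their median was 20 CpG against 6. The TATA box TATAAA was in none of the 37 windows and in 12.4% of all, and CCAAT, searched on both strands as were the others, in 32.4% and 33.8%. These matches describe letters in a window of fixed length and say nothing of binding.

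Divided by exonic length, the levels of the 38 genes spanned a wide range in wild-type cortex. Ehmt2, the catalytic partner of Ehmt1 in H3K9 mono- and dimethylation, was highest at 32.8 ± 1.33 CPM per exonic kb (SD, n = 2). Ash1l, an H3K36 dimethyltransferase, at 21.2 ± 0.243 and Nsd1, which makes the same mark, at 20.9 ± 1.14 followed and could not be ordered within their spread. The H3K9 eraser Kdm4b (17.6), Nsd2 (17) and Setd7 (16.7), an H3K4 monomethyltransferase, came next, also within each other's spread. The order depends on the length used: per kb of the longest transcript Ehmt2 was still highest, but Nsd2 was 2nd at 36.7, Ash1l 4th, Setd5 6th instead of 18th, and Kdm4b 7th. At the low end stood Suv39h2, an enzyme that trimethylates H3K9, at 1.06, the H3K27 eraser Kdm6b at 1.09 and the H3K27 writer Ezh2 at 1.55. Of the alternative catalytic subunits of the Polycomb repressive complex 2 (PRC2), Ezh1 stood at 9.11 CPM per exonic kb and Ezh2 at 1.55. Between the 3 groups, Kmt2d went from 10th in wild type to 14th in vehicle-treated mutants and 21st under GSK-LSD1, Kmt2a from 11th to 17th and 19th, Kmt2e from 12th to 12th and 17th, and Setd5 from 18th to 21st and 24th.

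**Figure D1:**
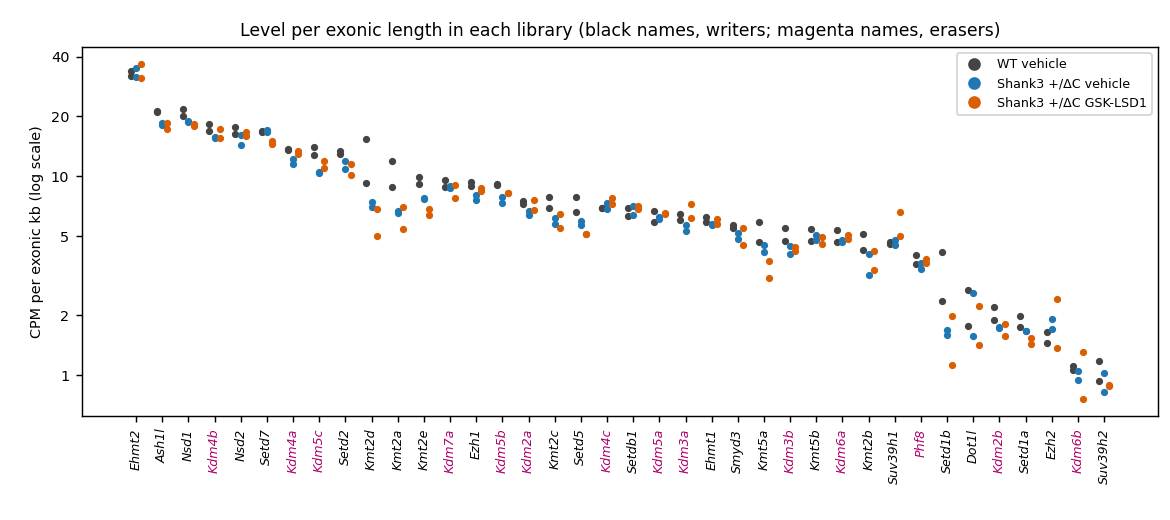
CPM per exonic kb (log scale) of the 38 genes in each of the 6 libraries, ordered by the mean of the 2 wild-type libraries, with writers named in black and erasers in magenta. Ehmt2 is highest in every library, and the wild-type points of Kmt2d, Kmt2a and Setd1b lie well apart from each other and above the mutant points.

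In vehicle-treated mutants against wild type, which asks what the Shank3 deletion changes, none of the 38 genes passed the test (edgeR quasi-likelihood, Benjamini-Hochberg over all 18705 genes, threshold 0.05). Most of them nonetheless had lower values in the mutants. Of all tested genes, 0.278% passed higher and 0.994% lower. At an unadjusted p under 0.05, 11 of the 38 were lower and 0 higher, against 8.24% and 5.81% of all genes. Both mutant libraries lay below both wild-type libraries for 25 of the 38 genes and above them for 1, where 23.1% of all genes did so in either direction. The fold change was negative for 32 genes, against 47.7% of all. The median log2 fold change was -0.17, beside 0.02 over all tested genes. DESeq2 called 2 of the 38 lower, Kmt2a and Kdm5c (2.52% of all genes were called lower by that tool), and limma-voom called none (0.54%).

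GSK-LSD1-treated against vehicle-treated mutants is the comparison whose labels differ only by the inhibitor. Cell type markers also differed between these libraries, and their part was not tested. None of the 38 genes passed in edgeR, DESeq2 or limma-voom. Among all genes 0.102% passed higher and 0.00535% lower in edgeR, and 0.0107% lower in each of the other tools. At an unadjusted p under 0.05 in edgeR, 2 were higher and 2 lower, against 3.18% and 2.52% of all genes. The 2 groups' libraries did not overlap for 10 genes that were higher and 7 that were lower, against 17% and 16.6% of all genes. The fold change was negative for 17 of the 38, against 50.1% of all genes. Its median was 0.02, and -0.001 over all genes. Writers had a median of -0.05 and erasers one of 0.08. Of the 14 erasers 12 had a positive fold change, and for 7 both treated libraries lay above both vehicle libraries. The difference between writers and erasers was not tested.

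GSK-LSD1-treated mutants against wild-type mice combine the deletion and the inhibitor. Here 4 writers fell (Kmt2a, Kmt2e, Setd5 and Kmt5a) and no gene of the set rose, where 1.99% of all genes passed lower and 0.636% higher. At an unadjusted p under 0.05, 12 were lower and 1 higher, against 8.62% and 7.11%. The libraries did not overlap for 20 genes that were lower and 2 that were higher, against 22.4% and 23.5% of all genes. The fold change was negative for 31 genes, against 47.4% of all. The median log2 fold change was -0.15 beside 0.02 over all genes, with -0.26 for the writers and -0.07 for the erasers. The comparison shares its wild-type libraries with the first and its treated libraries with the second, so the 3 are not independent of each other. DESeq2 called 5 of the 38 lower, adding Kmt2d to the 4 (3.33% of all genes), and limma-voom called 5, Kmt2a, Kmt2d, Kmt2e, Setd1b and Setd5 (1.66%).

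**Figure D2:**
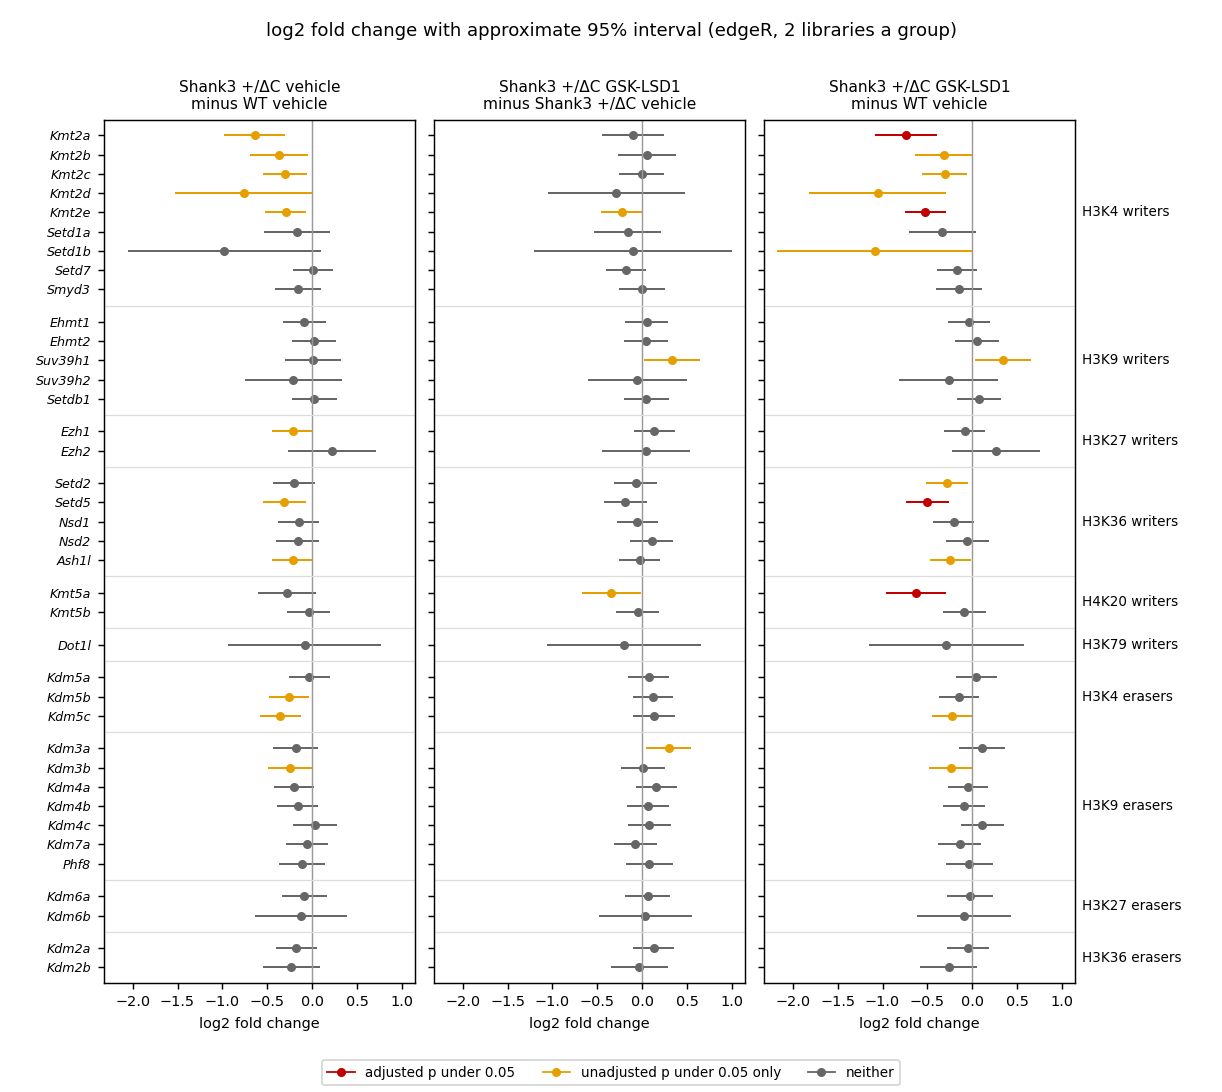
log2 fold changes of the 38 genes in the 3 comparisons with approximate 95% intervals, grouped by residue and role. Red points passed the adjusted threshold, which only Kmt2a, Kmt2e, Setd5 and Kmt5a did and only in the right panel. Orange points had an unadjusted p under 0.05, and gray points neither.

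The H3K4 writers held the single genes with the largest fold changes against wild type, Setd1b and Kmt2d. Of 9, both vehicle-treated mutant libraries lay below both wild-type libraries for 8 (23.1% of all genes did), and both treated libraries for 8 (22.4%). Their median log2 fold change was -0.30 in vehicle-treated mutants against wild type, -0.10 under the inhibitor against vehicle and -0.33 in treated mutants against wild type. Of the 9, 2 fell in the last comparison (1.99% of all genes did) and 0 passed in the others.

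Kmt2a (MLL1), the catalytic subunit of a COMPASS-like complex that trimethylates H3K4, stood at 199.7 and 146.3 CPM in the wild-type libraries, 109.5 and 112 in vehicle-treated mutants, and 90.05 and 117 under GSK-LSD1. All 4 mutant libraries were below both wild-type libraries, and the treated pair spread on either side of the vehicle pair. The log2 fold change was -0.64 (SE 0.15, edgeR adjusted p = 0.0657) in vehicle-treated mutants and -0.74 (SE 0.15, adjusted p = 0.0262) in treated mutants against wild type. Under the inhibitor it was -0.10 against vehicle (SE 0.15, adjusted p = 0.995). The treated library with 90.05 CPM was the one whose oligodendrocyte sum, 2500 CPM, lay at the wild-type level. With the oligodendrocyte level as a covariate, Kmt2a was at -1.02 (adjusted p = 0.0102) in vehicle-treated mutants and -0.91 (adjusted p = 0.000741) in treated mutants against wild type. The value under the inhibitor then turned to 0.11, and it was 0.08 without GSK-LSD1 library 1. The call in treated mutants against wild type was lost with library size scaling (adjusted p = 0.101) and with the 4 libraries of that comparison alone (adjusted p = 0.063).

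Kmt2e (MLL5) belongs to the family by its SET domain, and its enzyme activity is doubted. It stood at 103.4 and 95.17 CPM in wild type, 80.99 and 80.59 in vehicle-treated mutants, and 66.52 and 71.81 under GSK-LSD1. The 3 groups did not overlap, with wild type highest and the treated mutants lowest. The log2 fold change was -0.30 (SE 0.10, edgeR adjusted p = 0.182) for the deletion, -0.23 (SE 0.10, adjusted p = 0.873) for the inhibitor and -0.52 (SE 0.10, adjusted p = 0.0147) for both together. Of the gene's exonic bases, 9.31% overlap Srpk2 on the opposite strand. Reads of the 2 genes there cannot be told apart unless the counting used strand, which the labels do not say. The same limit holds for larger opposite-strand overlaps of Kdm3b (24.6%), Suv39h1 (14.6%) and Suv39h2 (9.98%), described below.

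Kmt2d (MLL4), the main enhancer H3K4 monomethyltransferase with Kmt2c, had 306.7 and 183.8 CPM in wild type, 147.9 and 140.3 in vehicle-treated mutants, and 100.1 and 135.8 under GSK-LSD1. Its 3 groups did not overlap either, but the wild-type libraries were further from each other than the lower of them was from the mutants. The log2 fold change was -0.76 (SE 0.29, edgeR adjusted p = 0.347) in vehicle-treated mutants and -1.06 (SE 0.29, adjusted p = 0.19) in treated mutants against wild type. The latter passed in DESeq2 (adjusted p = 0.0351), in limma-voom (adjusted p = 0.0195) and with the oligodendrocyte covariate (adjusted p = 0.0326). Its paralog Kmt2c had 159.5 and 139.8 CPM, then 125.1 and 117.3, then 110.8 and 130.7 in the same order of groups. Wild type was highest and the mutant groups overlapped each other, with log2 fold changes against wild type of -0.30 (SE 0.11, adjusted p = 0.213) and -0.31 (SE 0.11, adjusted p = 0.174), the first of which was -0.53 (adjusted p = 0.18) with the covariate.

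Setd1b, the catalytic subunit of a SET1 complex that trimethylates H3K4, is named after its values were seen, for the largest difference of the set. It stood at 50.17 and 28.54 CPM in wild type, 20.45 and 19.09 in vehicle-treated mutants, and 13.57 and 23.78 under GSK-LSD1. The log2 fold changes against wild type were -0.98 (SE 0.40, edgeR adjusted p = 0.394) and -1.08 (SE 0.40, adjusted p = 0.317), with intervals that reached from -2.04 to 0.08 and from -2.16 to -0.0017. With the oligodendrocyte covariate, whose slope rests mostly on the GSK-LSD1 pair, both passed, at -1.77 (adjusted p = 0.0102) and -1.45 (adjusted p = 0.00121). The wild-type pair was thus wide apart here as well. Kmt2b (MLL2), which trimethylates H3K4 at CpG-rich promoters, had 49.42 and 40.94 CPM in wild type, 30.61 and 39.18 in vehicle-treated mutants, and 32.31 and 40.27 under GSK-LSD1. Every mutant value was below both wild-type values, with log2 fold changes against wild type of -0.37 (SE 0.15, adjusted p = 0.256) and -0.32 (SE 0.15, adjusted p = 0.31). The covariate moved the first to -0.67 (adjusted p = 0.176).

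The other 3 H3K4 writers did not pass in any comparison. Setd1a had 11.91 and 13.51 CPM in wild type, 11.31 and 11.34 in vehicle-treated mutants, and 10.47 and 9.743 under GSK-LSD1. Its 3 groups did not overlap, with the treated mutants lowest. The log2 fold changes against wild type were -0.17 (SE 0.17, edgeR adjusted p = 0.736) and -0.33 (SE 0.17, adjusted p = 0.371). Of the exonic bases of Setd1a, 51.8% are shared with another annotated gene on the same strand, so its counts are uncertain. Smyd3 lay between 41.49 and 52.18 CPM. Setd7 lay at 179.6 to 184.2 CPM in the 4 vehicle libraries and at 157.9 and 163.5 under GSK-LSD1, with a log2 fold change of -0.18 (SE 0.10, edgeR adjusted p = 0.933) for the inhibitor.

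Among the 5 H3K36 writers, all 5 had both vehicle-treated mutant libraries below both wild-type libraries, and 4 of 5 had both treated libraries below them, as had 23.1% and 22.4% of all genes. Their median log2 fold change was -0.21 for the deletion, -0.06 for the inhibitor and -0.25 for both, and 1 of 5 fell in the last, as did 1.99% of all genes. Setd5, whose methyltransferase activity is debated, had 144.2 and 121.9 CPM in wild type, 104.7 and 109.4 in vehicle-treated mutants, and 93.74 and 94.23 under GSK-LSD1. The 3 groups did not overlap and the treated mutants were lowest. Setd5 differed by -0.31 on the log2 scale (SE 0.11, edgeR adjusted p = 0.177) for the deletion, -0.19 (SE 0.11, adjusted p = 0.955) for the inhibitor and -0.50 (SE 0.11, adjusted p = 0.0199) for both. Ash1l had 312.3 and 317.4 CPM in wild type, 273.9 and 267.5 in vehicle-treated mutants, and 256.8 and 274 under GSK-LSD1. Its wild-type pair was close and above all 4 mutant libraries, with log2 fold changes against wild type of -0.22 (SE 0.10, adjusted p = 0.35) and -0.25 (SE 0.10, adjusted p = 0.244). Setd2, which trimethylates H3K36 and travels with RNA polymerase II, lay at 138.7 and 143.7 CPM in wild type and 109.2 to 128.7 in the mutants. Nsd1 ran from 313.8 to 379.3 CPM and Nsd2 from 240.3 to 296.2 over the 6 libraries, and neither passed.

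Kmt5a, which places the first methyl group on H4K20, stood at 31.21 and 24.86 CPM in wild type, 21.97 and 23.85 in vehicle-treated mutants, and 16.41 and 19.89 under GSK-LSD1. Its groups did not overlap, with the treated mutants lowest. Kmt5a differed by -0.28 on the log2 scale (SE 0.15, edgeR adjusted p = 0.413) for the deletion, -0.34 (SE 0.15, adjusted p = 0.85) for the inhibitor and -0.63 (SE 0.15, adjusted p = 0.0346) for both. The call for both held in 7 of 13 alternative fits that kept both libraries of each compared group. It was lost with upper quartile scaling (edgeR adjusted p = 0.0523), library size scaling (adjusted p = 0.097) and limma-voom. With the covariate the value for the deletion was -0.57 (adjusted p = 0.347) and that for the inhibitor -0.18 (adjusted p = 0.916). Kmt5b, which adds the further methyl groups, lay between 67.38 and 79.88 CPM with overlapping groups. Dot1l, the H3K79 methyltransferase, had 23.41 and 15.39 CPM in wild type, 13.74 and 22.4 in vehicle-treated mutants, and 12.38 and 19.35 under GSK-LSD1. Each of its pairs was wide apart, and the interval for the deletion reached from -0.93 to 0.75 around -0.09. With the covariate it was -0.71 (adjusted p = 0.573).

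The H3K9 writers differed little for the deletion, with a median log2 fold change of 0.01 in vehicle-treated mutants against wild type, 0.05 for the inhibitor and 0.05 for both. Suv39h1, which trimethylates H3K9 in pericentric heterochromatin, had 24.57 and 24.06 CPM in wild type, 25.28 and 23.63 in vehicle-treated mutants, and 34.85 and 26.44 under GSK-LSD1. Both treated libraries were above the other 4, by a wide margin in 1 of them, with a log2 fold change for the inhibitor of 0.33 (SE 0.14, edgeR adjusted p = 0.831) that was 0.14 (adjusted p = 0.937) with the covariate. Ehmt2, the most abundant of the set per exonic kb, had 185.3 and 175 CPM, 172.7 and 191.4, and 202.3 and 171.3 in the same order of groups, which overlapped throughout. Its interval for the deletion reached from -0.22 to 0.25 on the log2 scale. Ehmt1 lay between 45.92 and 50.72 CPM and Setdb1, the partner of KRAB zinc finger repression, between 43.25 and 48.71. Suv39h2, the least abundant of the set, had 4.107 and 5.203 CPM, 4.504 and 3.628, and 3.943 and 3.884.

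Ezh1 and Ezh2, the H3K27 methyltransferases of PRC2, did not pass the test, and their values in vehicle-treated mutants lay on different sides of wild type. Ezh1 had 69.41 and 66.09 CPM in wild type, 56.67 and 59.82 in vehicle-treated mutants, and 64.78 and 62.82 under GSK-LSD1. The treated libraries lay between the other groups, with a log2 fold change of -0.22 (SE 0.10, edgeR adjusted p = 0.352) for the deletion and 0.13 (SE 0.10, adjusted p = 0.986) for the inhibitor. Ezh2 had 9.72 and 10.95 CPM, 12.73 and 11.43, and 9.115 and 16.15, so that the treated pair lay outside the range of all the others. Its log2 fold change for the deletion was 0.22 (SE 0.22, adjusted p = 0.752) and turned to -0.42 (adjusted p = 0.701) with the oligodendrocyte covariate.

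**Figure D3:**
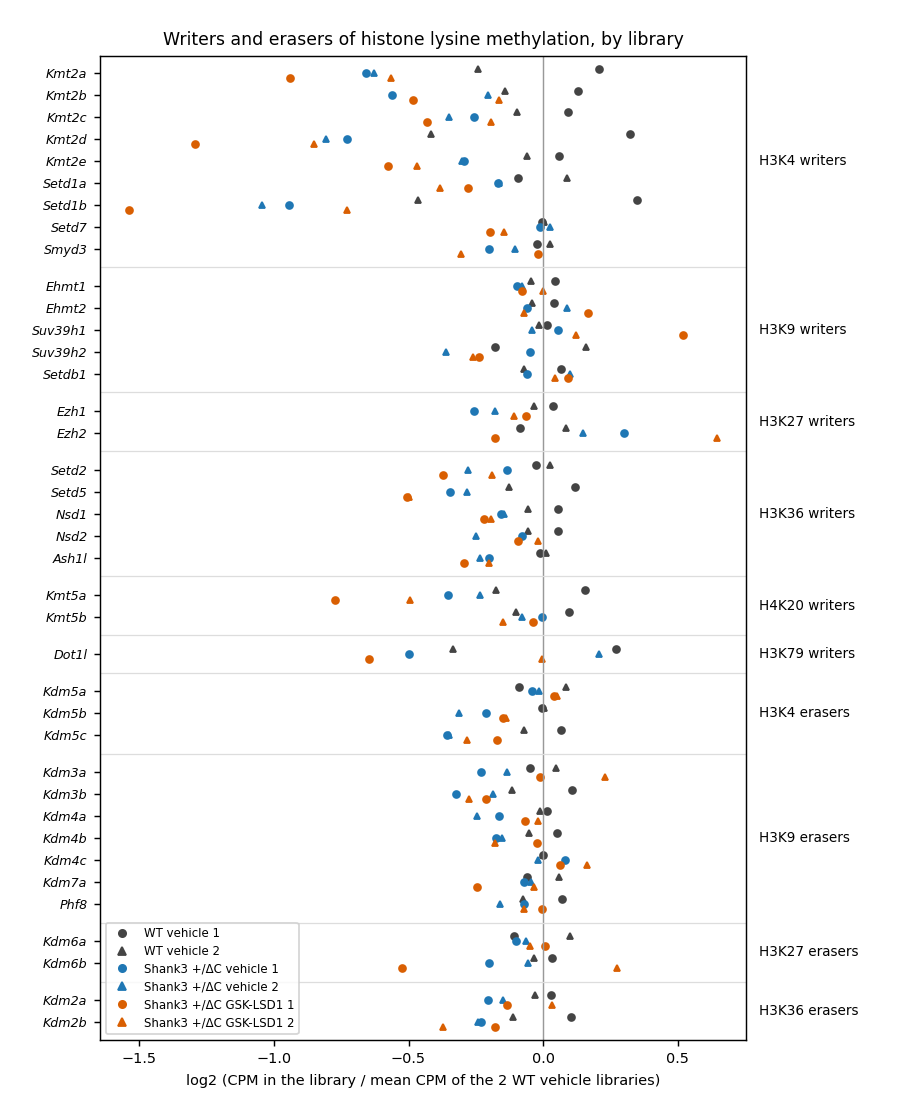
log2 of the CPM in each library over the mean CPM of the 2 wild-type libraries, for the 38 genes by residue and role. Circles are replicate 1 and triangles replicate 2. The mutant points of the H3K4 and H3K36 writers lie mostly to the left of the wild-type points, with Kmt2d and Setd1b of GSK-LSD1 library 1 furthest out. Most eraser points lie within 0.4 of 0.

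None of the 14 erasers passed the test in any comparison with edgeR. Their median log2 fold change was -0.17 for the deletion, 0.08 for the inhibitor and -0.07 for both. Both vehicle-treated mutant libraries lay below both wild-type libraries for 9 of 14 (23.1% of all genes), and both treated ones did so for 5 (22.4%).

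Kdm5c, an X-linked eraser of H3K4 trimethylation, had the smallest p of the erasers. It stood at 99.53 and 90.48 CPM in wild type, 74.09 and 74.46 in vehicle-treated mutants, and 84.41 and 78.15 under GSK-LSD1. The 3 groups did not overlap, and the treated mutants lay between the others. The log2 fold change was -0.35 (SE 0.10, edgeR adjusted p = 0.104, DESeq2 adjusted p = 0.0478) for the deletion, 0.13 (SE 0.10, edgeR adjusted p = 0.986) for the inhibitor and -0.22 (SE 0.10, edgeR adjusted p = 0.311) for both. Kdm5b, of the same family, had 150 and 150.5 CPM, 129.7 and 120.9, and 135.6 and 136.4. Its groups took the same order, with a log2 fold change of -0.26 (SE 0.10, adjusted p = 0.229) for the deletion and 0.12 (SE 0.10, adjusted p = 0.988) for the inhibitor. Kdm5a lay between 83.58 and 94.31 CPM with no such order. The X-linked Kdm5c and Kdm6a have Y-linked relatives, Kdm5d and Uty. These lay at 27.04 to 38.15 and 31.14 to 43.99 CPM in all 6 libraries, and how reads shared by such pairs were counted was not stated.

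The H3K9 erasers had a median log2 fold change of -0.16 for the deletion, 0.08 for the inhibitor and -0.05 for both. Kdm3a, an eraser of mono- and dimethylated H3K9 induced by hypoxia, had 49.42 and 52.86 CPM in wild type, 43.53 and 46.53 in vehicle-treated mutants, and 50.66 and 59.89 under GSK-LSD1. Both treated libraries were above both vehicle-treated mutant libraries, with a log2 fold change of 0.29 (SE 0.11, edgeR adjusted p = 0.782) for the inhibitor and 0.11 (SE 0.11, adjusted p = 0.723) against wild type. Its paralog Kdm3b had 77.28 and 66.2 CPM, 57.36 and 63.04, and 61.9 and 59.34, with all mutant libraries below wild type. Kdm3b differed by -0.25 on the log2 scale (SE 0.11, adjusted p = 0.311) for the deletion and 0.01 (SE 0.11, adjusted p = 0.999) for the inhibitor. Kdm4a, which also acts on H3K36, lay at 79.47 and 78.12 CPM in wild type, 70.37 and 66.48 in vehicle-treated mutants, and 75.09 and 77.67 under GSK-LSD1, again with the treated mutants in between. Kdm4b ran from 75.97 to 89.19, Kdm4c from 39.86 to 45.24, Kdm7a from 78.01 to 96.33 and Phf8 from 31.88 to 37.44 CPM over the 6 libraries.

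The erasers of H3K27 and H3K36 showed no call. Kdm6a (UTX) had 39.02 and 45.13 CPM in wild type, 39.25 and 40.23 in vehicle-treated mutants, and 42.23 and 40.68 under GSK-LSD1, with overlapping groups. Kdm6b (JMJD3), an inducible eraser, ran from 5.257 to 9.13 CPM, and both extremes were treated libraries. Kdm2b, which recruits a variant Polycomb complex to CpG islands, had 23.89 and 20.56 CPM, 18.94 and 18.77, and 19.63 and 17.17, with all mutant libraries below wild type. Its log2 fold change was -0.23 (SE 0.14, edgeR adjusted p = 0.518) for the deletion. Kdm2a ran from 92.53 to 109.1 CPM.

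The calls changed when single libraries were left out. Such a fit leaves 1 library in a group and weakens the test for every gene. A lost call therefore does not show that it rested on the library left out. Without wild-type library 1 none of the 38 genes passed in treated mutants against wild type (7 lower at an unadjusted p under 0.05), and only 6 of all tested genes did. Kmt2a was then at -0.51 (edgeR adjusted p = 0.247), Kmt2e at -0.47 (adjusted p = 0.198), Setd5 at -0.38 (adjusted p = 0.328) and Kmt5a at -0.46 (adjusted p = 0.437). Without GSK-LSD1 library 1, Setd5 alone passed (adjusted p = 0.0473). Without GSK-LSD1 library 2, Setd5 did not (adjusted p = 0.077). Without wild-type library 2, 6 passed, with Kmt2d at -1.39 (adjusted p = 0.000651) and Setd1b at -1.45 (adjusted p = 0.047) added to the 4. The fold changes of these 6 genes stayed negative in all 6 of these fits.

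**Figure D4:**
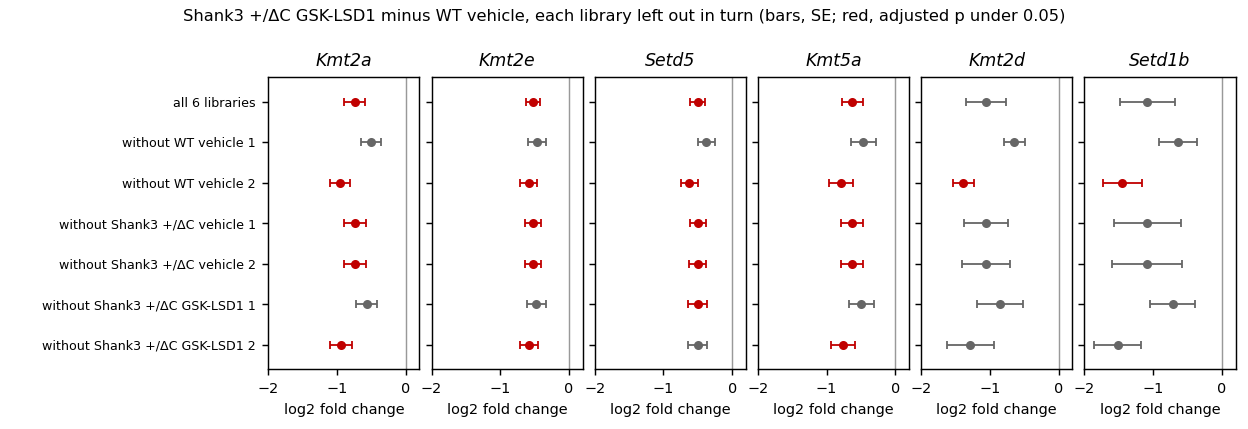
log2 fold change (points) with its standard error (bars) of 6 writers in GSK-LSD1-treated mutants against wild type, from all 6 libraries and with each library left out in turn. Red points passed the adjusted threshold. Every point lies below 0, and none is red without wild-type library 1.

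Wild-type library 1 stood above wild-type library 2 for several of these genes. The ratio of their CPM was 1.76 for Setd1b, 1.67 for Kmt2d, 1.52 for Dot1l, 1.36 for Kmt2a, 1.26 for Kmt5a and 1.21 for Kmt2b. The longest transcript of Setd1b is 59% GC, that of Kmt2d 58.4% and that of Dot1l 57.5%, beside a median of 49.2% over all tested genes. Over the 38 genes, the log2 ratio of the 2 libraries followed GC content with Pearson's r of 0.579 and Spearman's rho of 0.565, beside 0.061 and 0.165 over all tested genes. The same ratio gave r of -0.447 over the 38 genes in the vehicle-treated mutant pair and -0.184 in the treated pair. The genes are not independent replicates and share both libraries, so this is a description. The set was also long, with a median exonic length of 9.46 kb beside 3.79 kb. Its fold changes in treated mutants against wild type followed log2 length with r of -0.412, beside -0.119 over all genes.

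After exonic length and GC were corrected for, 3 of the 38 genes passed in treated mutants against wild type. Kmt2a was at -0.59 (edgeR adjusted p = 0.0262), Kmt2e at -0.46 (adjusted p = 0.0243) and Kmt5a at -0.62 (adjusted p = 0.0336). Setd5 at -0.33 (adjusted p = 0.0888) no longer passed. The median of the 38 genes was -0.08 after correction in that comparison and -0.10 in vehicle-treated mutants against wild type, so each was closer to 0 than without it.

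**Figure D5:**
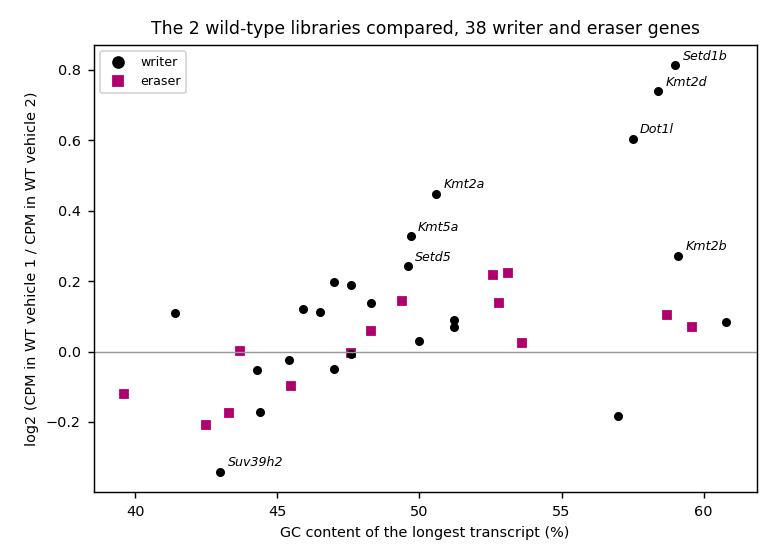
log2 ratio of CPM in wild-type library 1 over library 2 against the GC content of the longest transcript, for the 38 genes (circles, writers; squares, erasers). The 3 highest points, Setd1b, Kmt2d and Dot1l, lie above 57% GC, and most erasers lie within 0.2 of 0.

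Partners of these enzymes were described from lists of complexes and cofactor pathways. Of 11 tested COMPASS partners, shared or specific subunits and partners of the Kmt2 and Setd1 complexes, Ncoa6 passed and the others did not. Of all genes, 0.994% were called lower for the deletion and 1.99% in treated mutants against wild type. Pagr1a was listed at 0. Ncoa6, a coactivator in the Kmt2c and Kmt2d complexes, had 90.01 and 74.76 CPM in wild type, 54.65 and 47.57 in vehicle-treated mutants, and 42.69 and 57.03 under GSK-LSD1. It fell in vehicle-treated mutants (log2 fold change -0.69, SE 0.14, edgeR adjusted p = 0.0316) and in treated mutants (-0.73, SE 0.14, adjusted p = 0.0155) against wild type. Of 19 alternative fits, those with a library left out included, Ncoa6 lost the first call in 7 and the second in 3. Without wild-type library 1 it passed in neither (adjusted p = 0.47 and 0.206). The first call was also lost without either vehicle-treated mutant library (adjusted p = 0.0742 and 0.215), and the second without GSK-LSD1 library 1 (adjusted p = 0.0502). The core subunits did not pass. At an unadjusted p under 0.05 in treated mutants against wild type, 2 of the 11 were higher and 2 lower. Among all genes, 7.11% were higher and 8.62% lower. The higher ones were the core subunits Dpy30 (0.45, SE 0.17, edgeR adjusted p = 0.193) and Ash2l (0.24, SE 0.11, adjusted p = 0.314). The lower ones were Ncoa6 and Hcfc1 (-0.35, SE 0.10, adjusted p = 0.0871). The list's median was 0.01 for the deletion and -0.02 for both. Of 14 other SET and PR domain proteins, Nsd3, the third of the Nsd H3K36 writers, fell in treated mutants against wild type, as did 1.99% of all genes. Its levels were 132.4 and 108 CPM, 95.97 and 95.96, and 86.58 and 91.09, with a log2 fold change of -0.43 (SE 0.11, edgeR adjusted p = 0.0463). Nsd3 lost that call in 13 of 19 alternative fits, those with a library left out included. It did not pass without wild-type library 1 (-0.29, adjusted p = 0.558), without any single mutant library (adjusted p from 0.0552 to 0.125) or with the length and GC correction (adjusted p = 0.167).

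The remaining lists held no call in any of the 3 comparisons. Of 10 PRC2 partners, the smallest adjusted p was 0.375, for Jarid2, which helps PRC2 bind chromatin, in treated mutants against wild type. Of 9 H3K9 readers and partners, it was 0.112, for Wiz, a zinc finger partner of Ehmt1 and Ehmt2, in the same comparison. Of 10 other JmjC and LSD family proteins, it was 0.214, for Kdm4d in vehicle-treated mutants. Kdm4d, a relative of Kdm4a best known from testis, had 2.943 and 3.252 CPM in wild type, 1.885 and 1.497 in vehicle-treated mutants, and 3.434 and 2.657 under GSK-LSD1, so the vehicle-treated mutants were lowest without overlap. In the same list the LSD1 paralog Kdm1b was at 0.39 (SE 0.16, edgeR adjusted p = 0.26) in treated mutants against wild type. Of 13 genes of the cofactor pathways, 4 were higher and 0 lower at an unadjusted p under 0.05 in treated mutants against wild type. The 4 were Idh1, Idh2, Sdhb and Fh1, and 7.11% of all genes were higher. Idh2, a mitochondrial enzyme that makes 2-oxoglutarate, was at 0.50 (SE 0.13, edgeR adjusted p = 0.0564) and Idh1, its cytosolic relative, at 0.34 (SE 0.11, adjusted p = 0.102). Idh1 and Idh2 are also expressed in glia, whose marker sums were higher in most of the mutant libraries, and the part of that in their values was not tested.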

How the data were processed

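Prefrontal cortex RNA of 6 mice was sequenced, and gene counts per library were deposited. Per the submitters' processing notes, the authors used cutadapt, TopHat2, SAMtools, featureCounts and edgeR with mm10 (GRCm38). Tool versions, the annotation used for counting and its strand setting were not stated. The deposited counts are whole numbers per gene and were used as they are. Symbols were matched to GENCODE M21 for coordinates, exonic length and GC content (98.7% of tested genes). In the files 26 symbols had been turned into dates, none of them described here.

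The 38 genes, the partner lists and the marker lists were chosen with earlier results of these data known. Genes with low counts were removed with edgeR's filterByExpr, leaving 18705. TMM scaling and a quasi-likelihood F test (edgeR 4.0.16, R 4.3.3, robust, two-sided) were fitted on all 6 libraries in 3 groups with 3 residual degrees of freedom, so that the groups share 1 estimate of the spread. P-values were adjusted by Benjamini-Hochberg over all tested genes at 0.05. Standard errors were derived from the F statistics. The biological coefficient of variation was 11.5%. DESeq2 1.42.0, limma 3.58.1, other scalings, filters, covariates and left-out libraries were tried as alternatives.

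The labels call the samples biological duplicates. The spread behind each p-value came from them and was drawn toward that of all genes. Its total degrees of freedom had a median of 17.7, beside 3 residual ones. With 2 against 2, an exact permutation test of a single gene cannot go below p = 0.333. Replicates of each group differed beyond counting noise (chi-square over its degrees of freedom, 9.07 to 12). A floor of 3 counts corresponds to 0.105 to 0.212 CPM, and all described genes in the set lay above it. Values per library were given for the genes that passed, for those with the smallest p up to 10 per comparison, for 1 gene per residue class, and for the most and least abundant. Promoters came from RefSeq on GRCm38.p6. Protein sequences were not used here.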

Additional observations from a re-analysis of the deposited data

How the results depend on the processing

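For genes called, or at an unadjusted p under 0.05, 19 alternative fits gave 589 outcomes. Of these, 525 kept their side of the threshold, 43 lost a call, 21 gained one and 0 changed sign. Most of the 525 were uncalled results that stayed uncalled, and all 43 losses fell on the few called results. In 13 fits that kept both libraries of each compared group, the call in treated mutants against wild type held in 13 for Kmt2e. It held in 10 for Kmt2a, 10 for Setd5 and 7 for Kmt5a. Over all 114 values of the 38 genes in the 3 comparisons, 44 changed sign in at least 1 fit, and none of these 44 had an unadjusted p below 0.206. Where a group was left with 1 library, that library was assumed to vary like the others. Leaving out wild-type library 1 ended all calls of the set. The cause of the changes below was not tested. Depth limits the least abundant genes: Suv39h2, at 57 to 144 counts, had a standard error of 0.25 for the deletion.

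In vehicle-treated mutants against wild type, 238 of all genes were called, and 141 with upper quartile scaling, 35 with library size scaling, 805 without a filter, 602 with DESeq2, 137 with limma-voom, 11 without robust fitting, 136 with the length and GC correction, 85 with the oligodendrocyte covariate, 524 from the 4 libraries alone, and 6 to 656 with a library left out. Of the 38 genes, 0 were called, and 3 without a filter, 2 with DESeq2, 2 with the covariate, 1 from 4 libraries, and 0 to 2 with a library left out. Those at an unadjusted p under 0.05 were 11, and 7 with upper quartile scaling, 4 with library size scaling, 4 with the length and GC correction with or without the replicate block, and 4 to 12 with a library removed. For the 38 the median was -0.101 with library size scaling, -0.104 with the length and GC correction, -0.103 with the block added, -0.243 with the covariate, and -0.211 to -0.148 with a library left out. For writers these were -0.116, -0.121, -0.122, -0.264, and -0.211 to -0.185. For erasers they were -0.096, -0.101, -0.100, -0.226, and -0.201 to -0.136, with -0.144 under upper quartile scaling.

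Under the inhibitor against vehicle, 20 of all genes were called, and 104 without a filter, 35 with DESeq2, and 10 to 83 with a library left out. None of the 38 was called in any fit. Those at an unadjusted p under 0.05 were 4, and 1 with DESeq2, 1 with the covariate, and 1 to 5 with a library removed. For the 38 the median ran from -0.009 to 0.036 with a library left out. That of writers was 0.003 with the covariate and -0.106 to 0.013 with a library left out. That of erasers was 0.109 with the length and GC correction, with or without the block, and 0.074 to 0.086 with a library left out.

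In treated mutants against wild type, 491 of all genes were called, and 253 with library size scaling, 959 without a filter, 782 with DESeq2, and 6 to 629 with a library left out. Of the 38, 4 were called, and 1 with library size scaling (Kmt2e, adjusted p = 0.0478 in edgeR), 2 from 4 libraries, and 0 to 6 with a library left out. Those at an unadjusted p under 0.05 were 13, and 6 with library size scaling, 7 with the length and GC correction, 6 with the block added, and 7 to 11 with a library removed. For the 38 the median was -0.068 with library size scaling, -0.076 with the correction, -0.078 with the block added, -0.193 with the covariate, and -0.179 to -0.140 with a library left out. For writers it was -0.174, -0.135 and -0.135, and -0.269 to -0.181 with a library left out. For erasers it was 0.015 with library size scaling, which is above 0, -0.012 with the correction, -0.013 with the block, -0.045 with upper quartile scaling, and -0.099 to -0.051 with a library left out.

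The labels do not say that the shared replicate numbers pair the samples. Deviations of same-numbered libraries correlated at -0.08, 0.157 and -0.07 between pairs of groups. With 1 deviation per group, these values cannot show whether such libraries shared a batch. With the replicate block, 233 of all genes were called in vehicle-treated mutants against wild type, 18 under the inhibitor and 505 in treated mutants against wild type, and 0, 0 and 3 of the 38. Kmt2a was then at an adjusted p of 0.0518 in treated mutants against wild type, and Kmt5a at 0.05 (edgeR).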
